A study of Mus musculus with 10 samples.

Results

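Atrial fibrillation is a rhythm disorder in which the atria lose coordinated electrical activity, and common variants near a set of human genes change its risk. The mouse counterparts of 9 such genes were read from the deposited gene table by symbol: Kcnn2, Kcnn3, Zfhx3, Prrx1, Hand1, Synpo2l, Syne2, Cand2 and Sh3pxd2a. All 9 were among the 23337 genes of the table, and 8 of them had enough reads to be tested. 1 of the 8, the potassium channel gene Kcnn2, was called lower in the right atria of mice labelled Tbx5 mutant, and the other 7 passed no threshold in either direction.

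The series asks which genes change in adult right atrium when the T-box transcription factor Tbx5 is removed. RNA was sequenced from 4 libraries labelled control (M1, M2, F1, F2) and 6 labelled Tbx5 mutant (F1 to F3, M1 to M3), where M and F stand for the labelled sex. The genotype label reads Control in the first group and R26Cre driven TBX5 removal in the second. In the study's methods, the atrial groups are R26CreERt2 mice, which carry the Cre alone, and Tbx5 fl/fl;R26CreERt2 mice, in which tamoxifen-activated Cre cuts out exon 3 of Tbx5. The R26 promoter is active in nearly all cell types, so the excision is not confined to cardiomyocytes. One treatment text stands on the samples of both groups: tamoxifen at 0.167 mg per day for 3 days, and collection 1 week later. The strain label is mix, and the age is given as 8 to 10 weeks in one label and 6 to 8 weeks in another. The labels do not say whether a library held tissue of 1 animal or several, so p-values here measure the spread between libraries.

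The libraries held between 5703775 and 7095141 counted reads. In Tbx5 mutant M3, 38.9% of the reads fell on the ribosomal RNA precursor gene Rn45s, which left 3484550 reads for all other genes, while no other library gave Rn45s more than 1.49%. Reads of Xist, made by the inactive X chromosome, and of the Y-linked gene Ddx3y went against the sex label in all 4 control libraries and with it in all 6 mutant libraries. Tbx5 itself was at 205 CPM ± 17.8 (SD, n = 4) in the control libraries and 394 ± 83.3 (SD, n = 6) in the mutant libraries (CPM, the reads of a gene scaled to a common TMM library size, is the unit of all levels below). The gene targeted for removal was thus called higher in the libraries labelled Tbx5 mutant, with a log2 fold change of 0.94 (SE 0.15, adjusted p = 0.000495 by edgeR) and all 6 mutant values above all 4 control values. Reads counted over all of Tbx5 come from transcripts with and without exon 3 alike, so the excision was not checked by these counts, and every direction below is that of the labels. The atrial cardiomyocyte markers Myl7, Myl4, Nppa and Sln were abundant in both groups, as the tissue label gives. Over 10 such markers the summed level ran from 77963 to 92432 CPM in control and from 63943 to 77832 CPM in mutant libraries. Of these 10, Myl7, Nppa, Sln and Ryr2 were called lower and Actc1 and Tnnt2 higher. All 6 markers of proliferating cells were called higher (summed level 12.3 to 26.8 CPM in control and 74.1 to 246 CPM in mutant libraries). So were 5 of the 6 leukocyte markers tested (334.6 to 542.8 against 556.6 to 811.4 CPM over the list of 8). Of smooth muscle and pericyte markers 2 of 7 were called higher, and of endothelial markers 1 of 8. Over all 13084 genes tested, 8.5% were called higher and 7.16% lower. Of neuron and Schwann cell markers 3 could be tested and Dbh was called lower, with a summed level of 41.1 to 53.2 CPM against 18.2 to 24.1 CPM. Epicardial markers gave 0 calls of 6 by edgeR, DESeq2 and limma, with 1 at an unadjusted p under 0.05 by edgeR, and no adipocyte marker could be tested. The part of these cell types in the values of the members was not tested. In bulk tissue, fewer cells of a type and less RNA per cell cannot be told apart.

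The members act at several points of atrial biology. Kcnn2 and Kcnn3 encode the small-conductance calcium-activated potassium channels SK2 and SK3, which open when cytosolic calcium rises and help repolarize atrial muscle. Zfhx3 (a zinc finger homeodomain protein), Prrx1 (a paired-related homeobox protein of mesenchymal cells) and Hand1 (a basic helix-loop-helix factor of heart development) are transcription factors. Synpo2l encodes a Z-disc protein that binds actin and α-actinin, and Syne2 encodes nesprin-2, a giant protein that ties the nucleus to the cytoskeleton. Cand2 encodes a muscle-enriched regulator of cullin-RING ubiquitin ligases, and Sh3pxd2a encodes TKS5, a scaffold of podosomes.

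T-box factors bind DNA around the letters GGTGTG, and the promoters of the members were searched for them because Tbx5 is the gene targeted. RefSeq promoter windows (GRCm38.p6, from 250 bases before to 50 after each gene start) were matched by symbol for 5 of the 9 members, with 6 windows in all. Windows for Kcnn2, Cand2, Sh3pxd2a and Hand1 were not used here. The letters AGGTGTGA, on either strand, were in 0 of the 6 windows and in 1.28% of all 32851 windows. The shorter GGTGTG, which AGGTGTGA contains, was in 1 of the 6 on either strand and in 19.0% of all windows. The member with a match was Synpo2l, whose window is shown with those of Casz1 and Cux2, the other locus genes described below that were called and held the letters. Each is read 5′ to 3′ on the strand of its gene, and capitals mark GGTGTG or its reverse complement.
Synpo2l, chr14:20664627-20664652, minus strand: tcgtgtctatCACACCaagagttgtg
Casz1, chr4:148804267-148804292, plus strand: aaggtctgggGGTGTGagggtggagc
Cux2, chr5:122047967-122047992, minus strand: aacatacaagGGTGTGtgtgtgtgtg
In Synpo2l the capitals begin 68 bases before one of its RefSeq starts, which lies inside the gene as GENCODE places it, and the window of its other RefSeq start held no match. The match is a description of the letters only.

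In the control libraries, per kilobase of the longest annotated transcript, Synpo2l stood at 21.8 CPM per kb (range 16.7 to 28.1 over 4 libraries) and Syne2 at 21.4 (17.5 to 25.7), and the ranges of this pair overlapped. Cand2 followed at 12.1 CPM per kb (9.27 to 15.5) and Sh3pxd2a at 10.4 (10.1 to 11.0), again with overlap. Prrx1, at 4.99 CPM per kb (4.64 to 5.55), lay apart from its neighbours on both sides. Kcnn2 was at 2.06 CPM per kb (1.99 to 2.10) and Zfhx3 at 1.72 (1.24 to 2.00), with ranges that touched. Kcnn3, at 0.332 CPM per kb (0.189 to 0.567), was the lowest of the members tested.

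**Figure D1:**
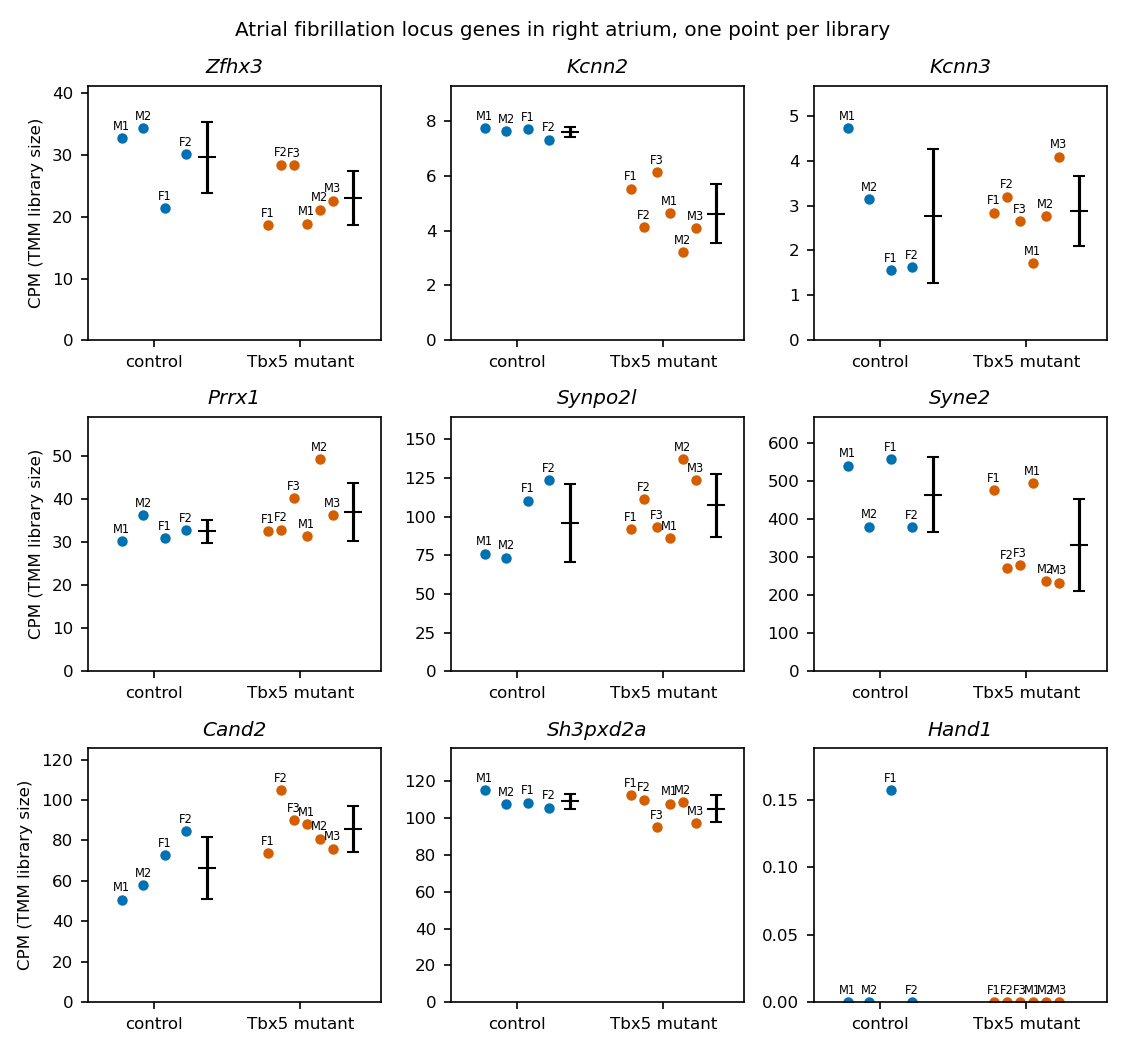
Level of each member in CPM (y axis, a scale for each gene) in the 4 control and 6 Tbx5 mutant libraries, with each library as a point and the mean ± SD as a black mark (not drawn for Hand1, which had 1 read in all). The 6 Kcnn2 values of the mutant libraries lie at 6.13 CPM or less, under the lowest control value of 7.31, while in each of the other 7 tested genes the groups overlap.

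Of the channel genes, Kcnn2 was lower in the libraries labelled Tbx5 mutant. The gene lies at chr18:45268860-45686024 on the plus strand (GENCODE M21, GRCm38), where its longest transcript has 11 exons and 3682 bases. It stood at 7.72, 7.61, 7.68 and 7.31 CPM in control M1, M2, F1 and F2, and in the mutant libraries at 3.20 CPM at the lowest, 4.38 at the median and 6.13 at the highest. The control values lay close together and above all 6 mutant values. The mean was 7.58 ± 0.185 CPM (SD, n = 4) against 4.62 ± 1.06 (SD, n = 6), a log2 fold change of -0.71 (SE 0.18, 95% interval -1.09 to -0.32), with an adjusted p of 0.00901 by edgeR's quasi-likelihood test over all 13084 genes tested. The exact two-sided permutation test over the 210 splits of 4 libraries against 6 gave p = 0.00952, the smallest it can give.

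These values rest on few reads, 46 to 54 per control library and 15 to 44 per mutant library. At such counts, counting error alone is larger than the SD of the control values. Their closeness thus cannot be read as a low spread between libraries. The fold interval, 0.470 to 0.800 of control, reached across the fold threshold of 1.5. Kcnn2 passed the adjusted p and fold thresholds in each of the 24 alternative fits that could test it, with log2 fold changes from -0.81 to -0.61. With the trend of each library on transcript length taken out, the log2 fold change was -0.70 (SE 0.17, adjusted p = 0.00912 by edgeR). Genes of 2000 to 4000 bases, as Kcnn2 is, had a median log2 fold change of 0.0448. This correction thus had little to take out at its length and is a weak check of its value. The summed level of the 10 cardiomyocyte markers was lower in all 6 mutant libraries than in all 4 control libraries, narrowly, at 77832 CPM or less against 77963 or more. Of the 10 markers, 5 were fitted below 0 and 5 above. The part of this sum in the Kcnn2 difference was not tested. An antisense gene, A330093E20Rik, shares 284 exon bases with Kcnn2 and had 0 to 6 reads per library of its own. Whether the counting used strand is not given for these libraries, so to which of the genes reads of this stretch belong is not known here.

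Read against the table, the call of 1 in 8 members was 12.5%, beside 15.7% of the 13084 genes tested, of which 7.16% were called lower and 8.5% higher. At an adjusted p under 0.05 with no fold threshold, Kcnn2 was still the only member, beside 31.3% of all genes, 15.0% lower and 16.3% higher. The mutant values lay under all control values for 1 member and above them for 0, beside 11.0% and 11.7% of all genes. The median log2 fold change of the 8 members was -0.0093, with 4 fitted below 0 and 4 above, and that of all genes tested was -0.0050.

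Kcnn3, at chr3:89520164-89675132 on the plus strand, encodes SK3. It stood at 4.72, 3.14, 1.57 and 1.62 CPM in control M1, M2, F1 and F2, and in the mutant libraries it ranged from 1.71 to 4.08 CPM with a median of 2.80. All 6 mutant values lay within the control range, which was itself a spread of 1.57 to 4.72 CPM. Its log2 fold change was 0.034 (SE 0.32, 95% interval -0.66 to 0.73, adjusted p = 0.950 by edgeR). With 10 to 33 reads per library, this interval held changes past the fold threshold in either direction. The third family member measured, Kcnn1, which encodes SK1, was at 12.5 ± 1.73 CPM (SD, n = 4) in control and 9.72 ± 1.21 (SD, n = 6) in mutant libraries. It passed the adjusted p alone, with a log2 fold change of -0.38 (SE 0.14, adjusted p = 0.0459 by edgeR) that was under the fold threshold. Kcnn4, the intermediate-conductance channel, had too few reads to test.

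Among the transcription factors, Zfhx3 did not pass the test. It lies at chr8:107942644-108961630 on the plus strand, and its longest transcript has 17152 bases. It stood at 32.7, 34.2, 21.3 and 30.0 CPM in control M1, M2, F1 and F2, and from 18.6 to 28.4 CPM, with a median of 21.9, in the mutant libraries. Control F1 was low beside the other 3 control libraries and lay within the mutant range, and 3 of the 6 mutant values were under all controls. The log2 fold change was -0.36 (SE 0.16, 95% interval -0.70 to -0.022), with an unadjusted p of 0.0385, an adjusted p of 0.0968 by edgeR and an exact permutation p of 0.0762. Without control F1 it was -0.49 and the adjusted p was 0.0309.

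With the length trend of each library removed, the Zfhx3 value changed sign, to 0.066 (SE 0.18, adjusted p = 0.818 by edgeR). Its paralogs are also large genes with few reads. Zfhx2 was called lower, at 4.46 ± 1.52 CPM (SD, n = 4) against 2.37 ± 0.739 (SD, n = 6), a log2 fold change of -0.92 (SE 0.27, adjusted p = 0.0198 by edgeR). That call was lost without control M2, and was lost with the length trend removed, where the value was -0.62 (adjusted p = 0.115 by edgeR). Zfhx4 had a log2 fold change of -0.61 (SE 0.25, adjusted p = 0.0783 by edgeR).

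Prrx1, at chr1:163245119-163313710 on the minus strand, stood at 30.3, 36.2, 30.9 and 32.8 CPM in control M1, M2, F1 and F2. The mutant libraries ran from 31.4 to 49.2 CPM with a median of 34.6, and 2 of them, F3 and M2, lay above all controls. For Prrx1 the log2 fold change was 0.19 (SE 0.13, 95% interval -0.085 to 0.47, adjusted p = 0.276 by edgeR), and 0.098 without mutant M2. With the length trend of each library removed it was 0.37 (SE 0.15, adjusted p = 0.0792 by edgeR). Prrx1 is a gene of fibroblasts rather than of cardiomyocytes. The summed level of 10 fibroblast markers was 9179 to 11296 CPM in control and 10004 to 13416 CPM in mutant libraries, and 5 of the 10 were called: Col1a1, Col1a2, Col3a1 and Postn higher and Gsn lower. The part of this in the Prrx1 value was not tested. The paralog Prrx2 had too few reads to test.

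Hand1, at chr11:57828705-57832818 on the minus strand, had 1 read in control F1 and 0 in every other library. A count of 3 reads, taken as the smallest detectable, was 4.23e-05% to 5.26e-05% of a library's counted reads, Rn45s included. As a share of the reads without Rn45s, the limit was higher in mutant M3, which had 3484550 of them. Hand1 was under 3 reads in all 10 libraries and no fold is given. These limits cover counting error only. Its paralog Hand2, a factor of right heart and sympathetic development, was called higher. It stood at 11.3, 10.1, 19.8 and 20.2 CPM in control M1, M2, F1 and F2 and from 22.3 to 47.1 CPM, with a median of 31.8, in the mutant libraries, so the groups did not overlap. Its log2 fold change was 1.09 (SE 0.22, adjusted p = 0.00235 by edgeR, exact permutation p = 0.00952), and 1.00 with the length trend removed. The partners of Hand factors Tcf3, Tcf12 and the related Twist1 did not pass the test, with log2 fold changes of 0.18, -0.059 and 0.21.

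Of the structural genes, Synpo2l varied as much within the groups as between them. It lies at chr14:20658946-20668354 on the minus strand. It stood at 76.0, 73.5, 110 and 123 CPM in control M1, M2, F1 and F2, and from 86.2 to 137 CPM, with a median of 102, in the mutant libraries. The controls formed a low pair, M1 and M2, and a high pair, F1 and F2, which is also their split by labelled sex. Of the 6 mutant values, 4 lay between the lowest and the highest control. The log2 fold change was 0.16 (SE 0.17, 95% interval -0.20 to 0.52, adjusted p = 0.495 by edgeR). It was 0.073 without control M1, 0.060 without control M2, 0.31 without control F2 and 0.083 without mutant M2. Of its relatives, Synpo (synaptopodin) was at 71.2 ± 8.28 CPM (SD, n = 4) against 89.7 ± 8.80 (SD, n = 6) and passed the adjusted p but not the fold threshold (log2 fold change 0.33, adjusted p = 0.0212 by edgeR). Synpo2 had a log2 fold change of -0.16 (adjusted p = 0.287 by edgeR).

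Syne2 was spread widely within both groups. The gene lies at chr12:75818134-76110926 on the plus strand and has the longest transcript of the 9, with 115 exons and 21704 bases. It stood at 541, 381, 558 and 379 CPM in control M1, M2, F1 and F2. The mutant libraries F1 and M1 were at 478 and 495 CPM, and the other 4 were between 234 and 280 CPM. Those 4 lay under all controls, while mutant F1 and M1 lay inside the control range. In both groups the libraries numbered 1 (control M1 and F1, mutant F1 and M1) were the highest. For Syne2 the log2 fold change was -0.48 (SE 0.23, 95% interval -0.97 to 0.0026, adjusted p = 0.119 by edgeR, exact permutation p = 0.0952). Leaving out 1 mutant library decided the call: without F1 the value was -0.61 (adjusted p = 0.0443 by edgeR) and without M1 it was -0.64 (adjusted p = 0.0292 by edgeR), both past the fold threshold. With the length trend removed it was -0.042 (SE 0.16, adjusted p = 0.868 by edgeR). With the replicate label entered as a block, and no length correction, it was -0.38 (SE 0.12, adjusted p = 0.0507 by edgeR). In that fit mutant F3 and M3, which have no control of the same label, did not enter the genotype difference.

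The libraries of the groups differed in this trend, which was measured as the Spearman correlation, across genes, of a library's deviations from the gene means with transcript length. It was 0.330, 0.256, 0.249 and 0.124 in control M1, M2, F1 and F2, and from -0.380 to 0.043 in the mutant libraries, so the groups did not overlap. Mutant F1 and M1, the libraries with high Syne2, were the only mutant libraries with a trend above 0, at 0.011 and 0.043. Genes with transcripts up to 2000 bases had a median log2 fold change of 0.19 (2540 genes), and those over 16000 bases a median of -0.47 (31 genes, 7 called lower and 0 higher). Syne2 and Zfhx3 were in that last group.

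**Figure D2:**
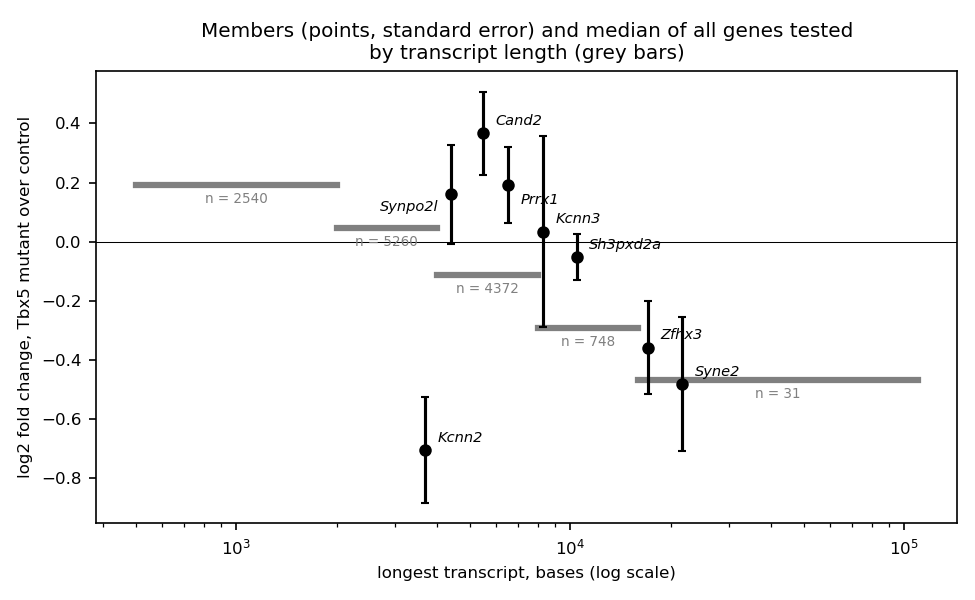
Log2 fold change, Tbx5 mutant over control, against the length of the longest transcript (log scale), with the 8 tested members as points with their standard errors and the median of all tested genes in each length class as grey bars with the number of genes. The medians go from 0.19 in the shortest class to -0.47 in the longest, Syne2 at -0.48 and Zfhx3 at -0.36 lie near the bar of their class, and Kcnn2 at -0.71 lies under both bars around its length of 3682 bases.

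**Figure D3:**
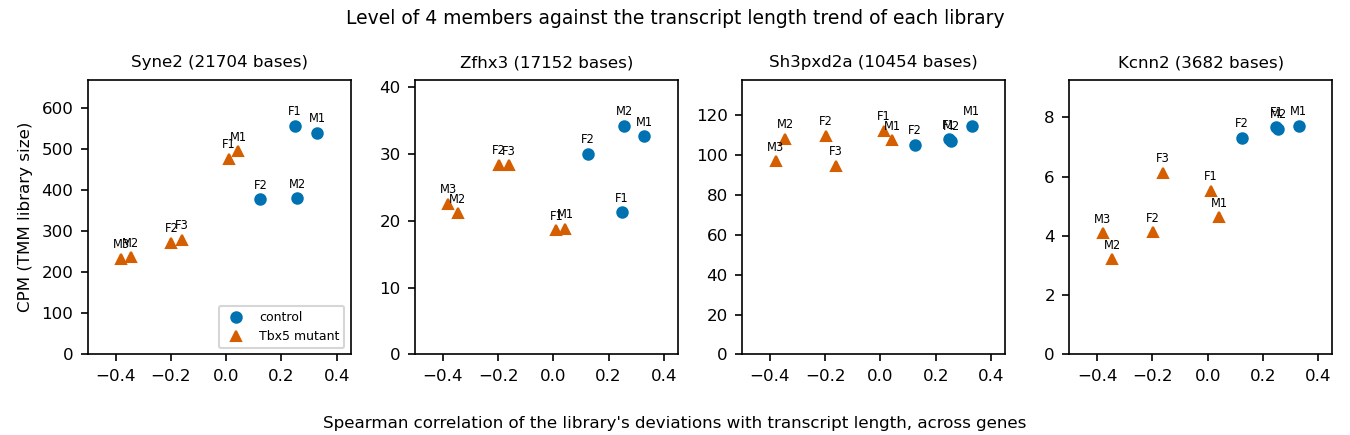
Level in CPM of Syne2, Zfhx3, Sh3pxd2a and Kcnn2 (y axis from 0) against the Spearman correlation of each library's deviations with transcript length across genes (x axis), with control libraries as circles and Tbx5 mutant libraries as triangles, named by their labels. All controls lie to the right of all mutants, and for Syne2 the 4 mutant libraries with a negative trend lie between 234 and 280 CPM while F1 and M1 lie at 478 and 495 CPM.

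The relatives of Syne2 that were measured gave a like picture for the other giant nesprin and smaller values for the rest. Syne1, which encodes nesprin-1, stood at 259, 204, 238 and 167 CPM in control M1, M2, F1 and F2, and from 106 to 234 CPM, with a median of 145, in the mutant libraries. Its log2 fold change was -0.45 (SE 0.20, adjusted p = 0.103 by edgeR), and 0.041 with the length trend removed. Sun1 and Sun2, the inner nuclear membrane proteins that anchor nesprins, had log2 fold changes of -0.13 and 0.15, neither past the test.

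Cand2 lies at chr6:115774538-115805557 on the plus strand. It stood at 50.7, 57.9, 72.6 and 84.6 CPM in control M1, M2, F1 and F2, and from 73.8 to 105 CPM, with a median of 84.5, in the mutant libraries. All controls but F2 lay under all 6 mutant values. For Cand2 the log2 fold change was 0.37 (SE 0.14, 95% interval 0.066 to 0.67), with an unadjusted p of 0.0203, an adjusted p of 0.0600 by edgeR and an exact permutation p of 0.0571.

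The adjusted p of Cand2 lay close to the threshold, and it went under 0.05 in 7 of 25 alternative fits, over which it ran from 0.0163 to 0.173. Without control F2 the log2 fold change was 0.51 (adjusted p = 0.0163 by edgeR), and with the length trend removed it was 0.49 (adjusted p = 0.0214 by edgeR). In no fit did it reach the fold threshold. Cand2 shares 53 exon bases with Rpl32, a ribosomal protein gene on the opposite strand. Rpl32 had 290 to 539 reads per library and a log2 fold change of 0.51 (SE 0.13, adjusted p = 0.00921 by edgeR), and its part in the Cand2 value was not tested. Cand1, the widely expressed paralog, had a log2 fold change of -0.097 (adjusted p = 0.441 by edgeR). Of the ligase subunits, Rbx1 passed the adjusted p alone (log2 fold change 0.28, adjusted p = 0.0238 by edgeR) and Cul1 did not pass (log2 fold change -0.19, adjusted p = 0.254 by edgeR).

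Sh3pxd2a had the smallest standard error of the 8 members tested. It lies at chr19:47260174-47464401 on the minus strand, and its longest transcript has 10454 bases. It stood at 115, 107, 108 and 105 CPM in control M1, M2, F1 and F2, and from 94.8 to 112 CPM, with a median of 108, in the mutant libraries. Only mutant F3 and M3 lay under all controls. The log2 fold change was -0.053 (SE 0.078, 95% interval -0.22 to 0.12, adjusted p = 0.637 by edgeR), so that without correction a change of the size of the fold threshold lay outside the interval.

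With the length trend removed, the Sh3pxd2a value changed sign and passed the adjusted p, at 0.25 (SE 0.084, adjusted p = 0.0385 by edgeR), under the fold threshold. Its paralog Sh3pxd2b, which encodes TKS4, was at 23.5 ± 2.86 CPM (SD, n = 4) against 33.0 ± 6.24 (SD, n = 6). The log2 fold change of Sh3pxd2b was 0.50 (adjusted p = 0.0160 by edgeR), under the fold threshold, and 0.72 with the length trend removed, where it passed.

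**Figure D4:**
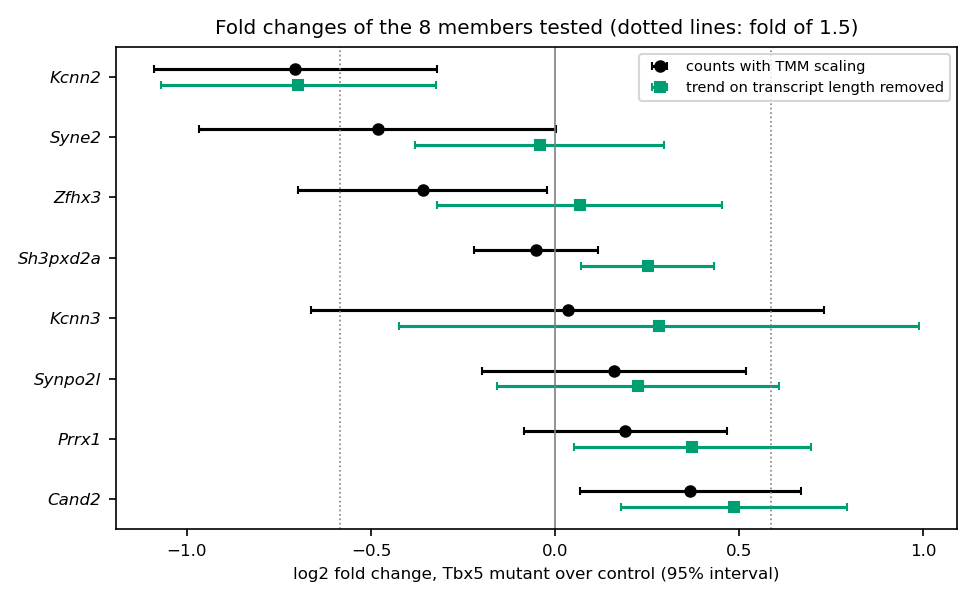
Log2 fold changes, Tbx5 mutant over control, of the 8 tested members with their 95% intervals, from the counts with TMM scaling (black circles) and with the transcript length trend taken out (green squares). Kcnn2, whose length class has a median of 0.0448 and so little trend to take out, goes from -0.71 to -0.70. Syne2 goes from -0.48 to -0.042, Zfhx3 from -0.36 to 0.066 and Sh3pxd2a from -0.053 to 0.25.

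Whether the genotype difference depended on sex was tested as an interaction in the same kind of fit. With the sexes as labelled, 0 of the 8 members passed an adjusted p of 0.05 by edgeR, and 3 had an unadjusted p under 0.05: Synpo2l, Kcnn3 and Zfhx3. For Synpo2l the log2 fold change was 0.87 higher in male than in female libraries (SE 0.25, adjusted p = 0.196 by edgeR). With the labels of the control libraries exchanged, to match their Xist and Ddx3y reads, the Synpo2l value was -0.42 (SE 0.24), and the members with an unadjusted p under 0.05 were Kcnn3 and Cand2, with 0 past the adjusted p. For Kcnn3 the value was -1.38 with the sexes as labelled and 1.22 with them exchanged. By limma, 0 members passed the adjusted p and 2 had an unadjusted p under 0.05.

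The genes whose levels were most like those of each member were found by Pearson's r of log2(CPM + 0.5) over the 10 libraries, after the mean of each group was removed, among 9983 genes with a mean count of at least 50. The values are descriptions, over libraries that share their depth and length trend with both genes. For Syne2 they were Dst (r = 0.997) and Macf1 (r = 0.986), genes of giant cytoskeletal linker proteins whose longest transcripts have 23279 and 23495 bases. For Cand2 they were Atg9a (r = 0.988) and Pde4a (r = 0.957), and for Zfhx3 they were Frs2 (r = 0.967) and Mll2 (r = 0.947). For Synpo2l they were Maea (r = 0.964) and Coq2 (r = 0.963), for Prrx1 Folr2 (r = 0.942) and Hist2h4 (r = 0.940), and for Sh3pxd2a Spata13 (r = 0.929) and Pank4 (r = 0.921). Kcnn2, Kcnn3 and Hand1 had mean counts under 50 and were not compared.

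The members were set beside 48 other genes named at human atrial fibrillation loci, several of which were prominent in earlier results of these data, so that their count is no independent evidence. Of these, 45 were tested and 15 were called, 12 lower and 3 higher, which is 33.3% beside 12.5% of the members and 15.7% of all genes. Their median log2 fold change was -0.25. The difference between the lists was not tested.

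The lower genes included the connexin genes Gja5 and Gja1, the sodium channel gene Scn10a, the potassium channel genes Kcnj5 and Kcnh2, and the pacemaker channel gene Hcn4, with log2 fold changes of -4.31, -2.27, -1.96, -2.06, -0.91 and -1.88. They also included Cux2 at -1.43, Slit3 at -1.29, Erbb4 at -1.25, Nav2 at -0.98 and Casz1 at -0.69, of which Casz1 went to -0.47, under the fold threshold, with the length trend removed. Scn10a, Cux2 and Hcn4 rest on few reads, at most 44, 78 and 80 in a library (SE 0.39, 0.28 and 0.44). For Cux2 and Hcn4 the values of the groups overlapped. The 3 higher genes were Casq2 (0.81) and Pln (0.95), which encode proteins of calcium storage and uptake in the sarcoplasmic reticulum, and Myocd (0.83), a coactivator of serum response factor. The Kcnn2 value, -0.71 (interval -1.09 to -0.32), lay nearer to 0 than that of Kcnj5 (interval -2.38 to -1.73). The intervals of Kcnn2 and Kcnj5 did not overlap. Kcnj2 (-0.26) and Kcnd3 (-0.11) are potassium channel genes of the list that were not called. The Kcnn2 interval overlapped those of Kcnh2 (-1.13 to -0.68), Kcnj2 (-0.57 to 0.047) and Kcnd3 (-0.42 to 0.20). The order of Kcnn2 against Kcnh2, Kcnj2 and Kcnd3 is thus not settled by these values.

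**Figure D5:**
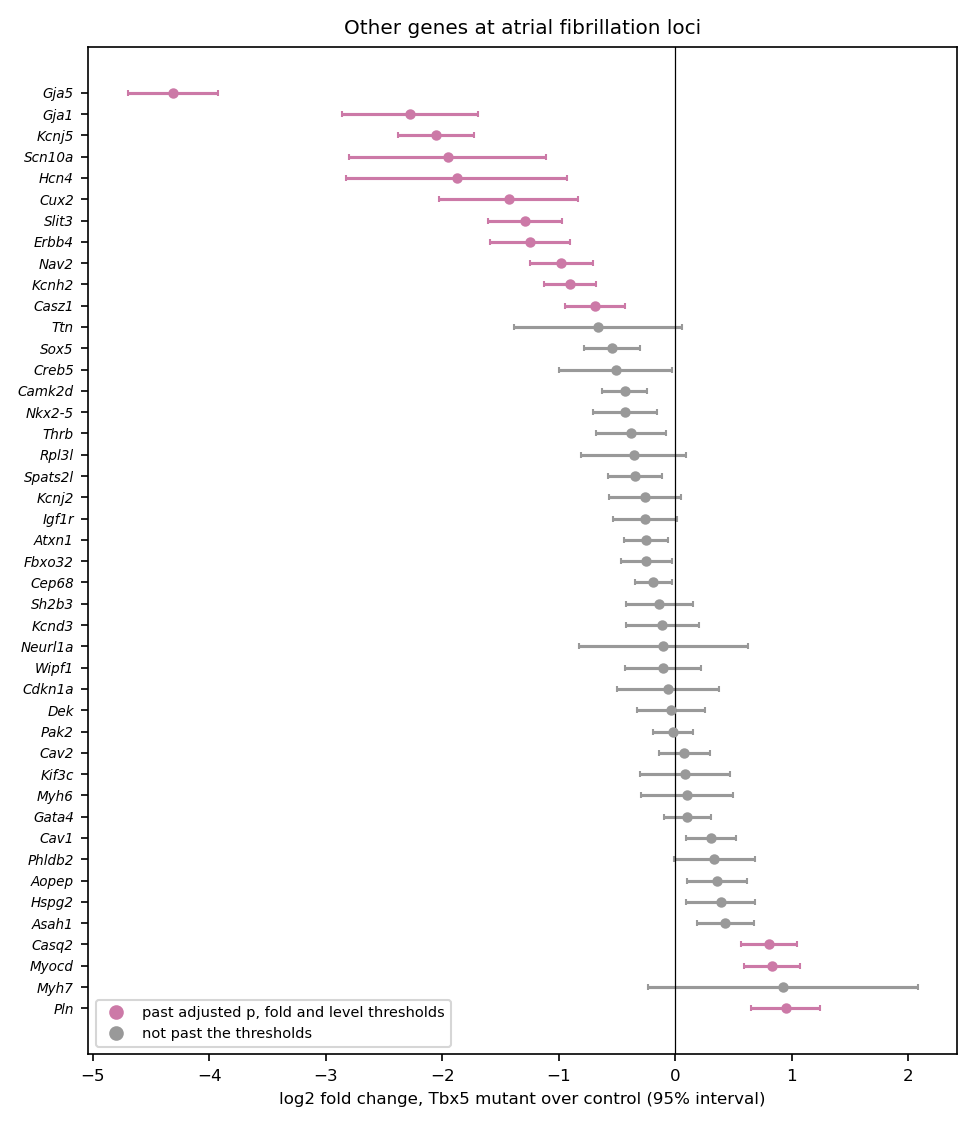
Log2 fold changes, Tbx5 mutant over control, with 95% intervals for the other tested genes at atrial fibrillation loci that are shown, in order of value, with called genes in pink and the rest in grey. Gja5 lies farthest from 0 at -4.31, the other lower genes shown lie between -2.27 and -0.69, and the 3 higher genes lie between 0.81 and 0.95.

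Of the other locus genes not called, Ttn (titin) was the most abundant and the longest, with a log2 fold change of -0.67 (SE 0.34, adjusted p = 0.146 by edgeR) that was -0.046 with the length trend removed. Myh6 had a log2 fold change of 0.099 (adjusted p = 0.711 by edgeR).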

How the data were processed

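The authors deposited 1 table of 23337 genes with whole-number counts of reads per gene and library, and a signal that was each count divided by 1 size factor per library. Its other columns hold the authors' DESeq2 comparison (mean signal, log2 fold change, standard error, test score, p-value, adjusted p-value and linear fold change) and were not used. The submitters' processing notes name FastQC, TopHat2 2.0.11, featureCounts, DESeq2 and mm10, with no role or order. The study's methods call the reads of its left atrial libraries stranded, and the strand setting of the counting here is not given in the sources used here. The labels describe both an mRNA kit and total RNA freed of ribosomal RNA.

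Libraries were grouped by their labels. Counts were fitted over all 10 libraries with edgeR 4.0.16 in R 4.3.3 (TMM, filterByExpr, quasi-likelihood test, no covariates, prior count 0.125). A gene was called at a Benjamini-Hochberg adjusted p under 0.05 over all genes tested, a fold over 1.5 and a mean deposited signal over 1 in control libraries. The SE of a log2 fold change is its size over the square root of F. For single genes, log2(CPM + 0.5) was put to an exact permutation test, two-sided. In the fit with lengths, a lowess trend (span 0.4) of each library's deviations on transcript length was entered as offsets. Lengths and positions come from GENCODE M21, found for 22872 genes and all 9 members. In a simulation over 12985 genes, 200 of them altered 2-fold, edgeR found 161 and made 7 other calls. The simulated counts held no trend on transcript length, so the 7 do not give the rate of such calls in these libraries.

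Alternatives were other prior counts (0.1, 5), no filter, a mean count of at least 50, DESeq2 size factors, upper-quartile scaling, DESeq2 1.42.0, limma 3.58.1 (log2 CPM, prior count 1), sex as labelled or exchanged, a replicate block, length and GC trends, no Rn45s, each library left out, an adjusted p under 0.01, and a fold over 2 or none. Libraries held 5703775 to 7095141 counts. Of 21 pairs of libraries within a group, none were alike within sampling noise (chi-square per degree of freedom 3.60 to 33.3).

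Members and lists were chosen with earlier results of these data known. Genes named are the members, Tbx5, the called genes of both lists, the most abundant uncalled ones, markers, overlapping genes and the 2 genes most like each member. Kcnn1, Kcnn4, Kcnd3, Kcnj2, Zfhx4, Prrx2, Rbx1, Sh3pxd2b, Tcf3 and Twist1 were named beyond that rule, after their values were seen. Some genes of the lists are not reported here.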

Additional observations from a re-analysis of the deposited data

Results flagged for a closer look

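In a search over 53 groups of values for a single library far from the rest (Dixon's test at 95%, by which chance gives about 2.65), 2 libraries stood out. Hand1 was at 0.157 CPM in control F1, which is 1 read, and at 0 in the other 3 control libraries. Erbb4, a neuregulin receptor gene among the other locus genes, was at 96.0 CPM (560 reads) in Tbx5 mutant M1, and between 44.9 and 58.2 CPM in the other 5 mutant libraries. No cause was tested for either.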

How the results depend on the processing

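The 1 member called, Kcnn2, was called in every alternative but 2: the count was 0 with a mean count of at least 50, where Kcnn2 was not tested, and 0 at a fold over 2. Leaving out 1 library gave 1 to 2 calls, the 2 being Kcnn2 and Syne2 without mutant F1 or without mutant M1. The count for the other locus genes, 15, was 12 with a mean count of at least 50, where Scn10a, Cux2 and Hcn4 were not tested. It was 9 at a fold over 2 and 24 with no fold threshold, and 15 to 16 with 1 library left out. Of the relatives and partners, 2 of 16 tested were called, 12.5% beside 15.7% of all genes tested. That count of 2 was 1 with a mean count of at least 50, 1 at an adjusted p under 0.01 and 1 at a fold over 2. It was 6 with no fold threshold, where 31.3% of all genes passed the adjusted p, and 1 to 3 with 1 library left out. Fitted directions turned for 4 members. Zfhx3 was 0.066 with the length trend removed. Syne2 was 0.046 with the replicate block and the length trend together. Sh3pxd2a was 0.25 with the length trend removed, 0.0080 with the replicate block and 0.28 with both. Kcnn3 ranged from -0.15 to 0.45 with 1 library left out, below 0 without control F1, control F2 or mutant M3.

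The deviations of the 4 pairs of control and mutant libraries with the same replicate label correlated at -0.047 to 0.036. The 20 other pairs across the groups ran from -0.29 to 0.28. These values do not settle whether replicate numbers pair the libraries. The replicate block compares the groups within those 4 pairs only, since mutant F3 and M3 have no control of the same label. By Xist and Ddx3y reads, each of these pairs joined libraries of opposite sex. With the replicate block the members called stayed at 1, Kcnn2 at -0.81 (adjusted p = 0.0167 by edgeR). Zfhx3 was then -0.44 (adjusted p = 0.0486 by edgeR) and Cand2 0.40 (adjusted p = 0.0446 by edgeR), both past the adjusted p and under the fold threshold. Zfhx3 also went past the adjusted p with the GC trend removed (0.0492). The direction and the side of the threshold held for Prrx1 and Synpo2l in all 25 alternatives, with values of 0.098 to 0.25 and 0.060 to 0.31 when 1 library was left out. Depth limits Kcnn2 and Kcnn3, with 54 and 33 reads at most in a library.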
